A study of Mus musculus with 14 samples.

Results

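Chromatin accessibility around 9 interferon response genes was measured by bulk ATAC-seq in mouse long-term haematopoietic stem cells. The genes were Ifih1, Stat2, Irf9, Irf7, Ifit1, Ifit2, Ifit3, Isg15 and Rsad2. ATAC-seq counts fragments that the Tn5 transposase cut out of open chromatin, so it reports accessibility and not transcription. A consensus peak was taken as a member where one of the 9 genes had the closest protein-coding span, no more than 50 kb away, or where it lay within 1 kb of an end of such a gene. This rule used position alone. It gave 21 of the 57289 consensus peaks: 6 at Ifih1, 4 at Ifit2, 3 at Rsad2, 2 each at Ifit1 and Irf7, and 1 each at Stat2, Irf9, Ifit3 and Isg15. Each of the 9 genes had a peak at its start, and all 21 peaks passed the filter on low counts.

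The 14 libraries formed 3 groups of C57BL/6 bone marrow cells sorted as lineage-negative, Sca1+, cKit+, CD34- and Flt3-. The aged Ri group (n = 5) came from mice older than 80 weeks, and its cells were held with 100 µM of the RhoA inhibitor Rhosin (Ri). The aged group (n = 5) came from mice of the same age without the inhibitor, and the young group (n = 4) from mice of 10 to 16 weeks, also without it. Cells of all 3 groups spent 16 h in HBSS with serum at 37 °C, 3% oxygen and 5% carbon dioxide before lysis, so no group shows freshly sorted cells. The design text calls the replicates biological, and the labels do not say how many mice stood behind a library. The libraries were spread over 3 sequencing batches, each of which held all 3 groups; batch 3 held 1 library of each.

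Type I interferon binds a receptor whose kinases, JAK1 and TYK2, phosphorylate STAT2. STAT2 joins IRF9 in a complex that binds the interferon-stimulated response element in the promoters of target genes, among them the Ifit genes, Isg15 and Rsad2. IRF7 amplifies interferon production, and MDA5, the product of Ifih1, senses long double-stranded RNA and can start the response. In haematopoietic stem cells, interferon is known to push dormant cells into division, and stem cells keep part of this antiviral programme active at rest.

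Libraries held 1255878 to 3176246 counts in aged Ri, 1153199 to 2705576 in aged and 765533 to 2219775 in young cells, and the lowest total was that of young 3. A member peak held 9.64 to 109 counts per library on average, with a median of 20.9 over the 21 peaks, so counting error is large for single peaks. The share of a library's counts at gene ends, meaning peaks within 1 kb of an end of any protein-coding gene, was 35.9% to 46.8% in aged Ri, 38.8% to 49.6% in aged and 47.0% to 50.8% in young libraries. Of 9 stem cell marker genes, 8 had a peak at a gene end (Gata2 did not), and their summed level was 188 to 281 CPM in aged Ri, 233 to 299 CPM in aged and 224 to 355 CPM in young libraries. CPM here means counts scaled to a common library size after TMM scaling of the libraries. In bulk libraries, fewer cells with an open site and less open chromatin per cell cannot be told apart.

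Promoter windows of 4 genes are printed to show the response element under their start peaks: Ifit1 and Ifit3 for a pair of elements they share, Isg15 for a run of them, and Ifih1 as the gene with the largest change. Windows run from 250 bases before to 50 bases after an annotated start (RefSeq, GRCm38.p6, the assembly called mm10), are written 5′ to 3′ on the gene's strand, and capitals mark the core of the interferon-stimulated response element. The core was searched as TTTCNNTTTC and as its reverse complement GAAANNGAAA, and overlapping matches were merged. The windows of Ifit1 (chr19:34640639-34640938, plus strand), Ifit3 (chr19:34583279-34583578, plus strand), Isg15 (chr4:156200769-156201068, minus strand) and Ifih1 (chr2:62646206-62646505, minus strand) follow.
Ifit1: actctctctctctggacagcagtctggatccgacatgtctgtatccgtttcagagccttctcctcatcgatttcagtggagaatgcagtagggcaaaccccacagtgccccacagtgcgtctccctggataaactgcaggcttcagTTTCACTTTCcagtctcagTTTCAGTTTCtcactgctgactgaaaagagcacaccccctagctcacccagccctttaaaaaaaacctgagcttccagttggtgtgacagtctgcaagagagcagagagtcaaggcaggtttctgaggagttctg
Ifit3: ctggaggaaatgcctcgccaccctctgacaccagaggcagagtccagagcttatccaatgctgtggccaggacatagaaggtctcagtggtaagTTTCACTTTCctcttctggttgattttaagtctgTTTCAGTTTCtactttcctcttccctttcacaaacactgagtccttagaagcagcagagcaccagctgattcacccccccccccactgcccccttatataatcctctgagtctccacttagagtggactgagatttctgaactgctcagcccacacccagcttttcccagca
Isg15: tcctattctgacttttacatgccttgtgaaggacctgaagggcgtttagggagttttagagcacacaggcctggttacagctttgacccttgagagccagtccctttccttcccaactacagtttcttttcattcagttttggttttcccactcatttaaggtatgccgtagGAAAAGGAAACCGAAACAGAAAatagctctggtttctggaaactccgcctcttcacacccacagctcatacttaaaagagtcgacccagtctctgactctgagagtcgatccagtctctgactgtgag
Ifih1: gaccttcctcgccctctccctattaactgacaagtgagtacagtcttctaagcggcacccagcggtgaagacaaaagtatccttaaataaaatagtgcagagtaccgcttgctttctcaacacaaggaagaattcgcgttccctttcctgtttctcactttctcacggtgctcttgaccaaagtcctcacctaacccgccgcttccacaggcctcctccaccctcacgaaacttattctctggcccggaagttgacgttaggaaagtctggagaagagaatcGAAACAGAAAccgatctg

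Ifit1 and Ifit3 shared the same pair of cores, TTTCACTTTC and TTTCAGTTTC, which began 104 and 85 bases before the start in Ifit1 and 156 and 122 bases before it in Ifit3. Isg15 held 3 overlapping cores, the first of them 78 bases before its start. In Ifih1 the single core began 32 bases after the start. Rsad2 had TTTCATTTTC 120 bases before its start and Stat2 had TTTCAGTTTC 222 bases before its own. The windows of Ifit2, Irf7 and Irf9 held no match to these letters. In all, 6 of 9 genes had a match, against 3.99% of the 27025 genes with a window in the table and 13 of 44 other interferon pathway genes with a window. Counted by window, 6 of 11 windows of the 9 genes had one, against 3.44% of all 32851 windows. Positions count from the annotated start of each window, which can differ from the start of the gene span. The Ifit3 window lies inside the gene span, which begins at chr19:34583119. A match is a string of letters in the window and was not tested as a binding site.

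Peaks are all 700 bp wide, so their levels can be compared between genes. At the starts, mean level over the 14 libraries was highest at Stat2 (55.4 ± 8.71 CPM, SD) and Irf9 (52.1 ± 8.91 CPM), the transcription factors of the interferon-activated complex. Ifit2 followed with 28.8 ± 5.22 CPM, then Ifih1 with 19.5 ± 4.48 and Rsad2 with 19.2 ± 4.36 CPM. Irf7 had 13.4 ± 3.68, Ifit1 10.6 ± 2.75, Ifit3 10.2 ± 3.04 and Isg15 9.73 ± 3.30 CPM. The steps from Irf9 to Ifit2, from Ifit2 to Ifih1 and from Rsad2 to Irf7 were larger than the spread over libraries, and the other neighbours in this order were not. The median of all 13728 gene-end peaks was 21.8 CPM, so 3 of the 9 starts lay above it and 6 below. Stat2 stood at the 83.1 percentile of gene-end peaks and Isg15 at the 23.2 percentile.

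**Figure D1:**
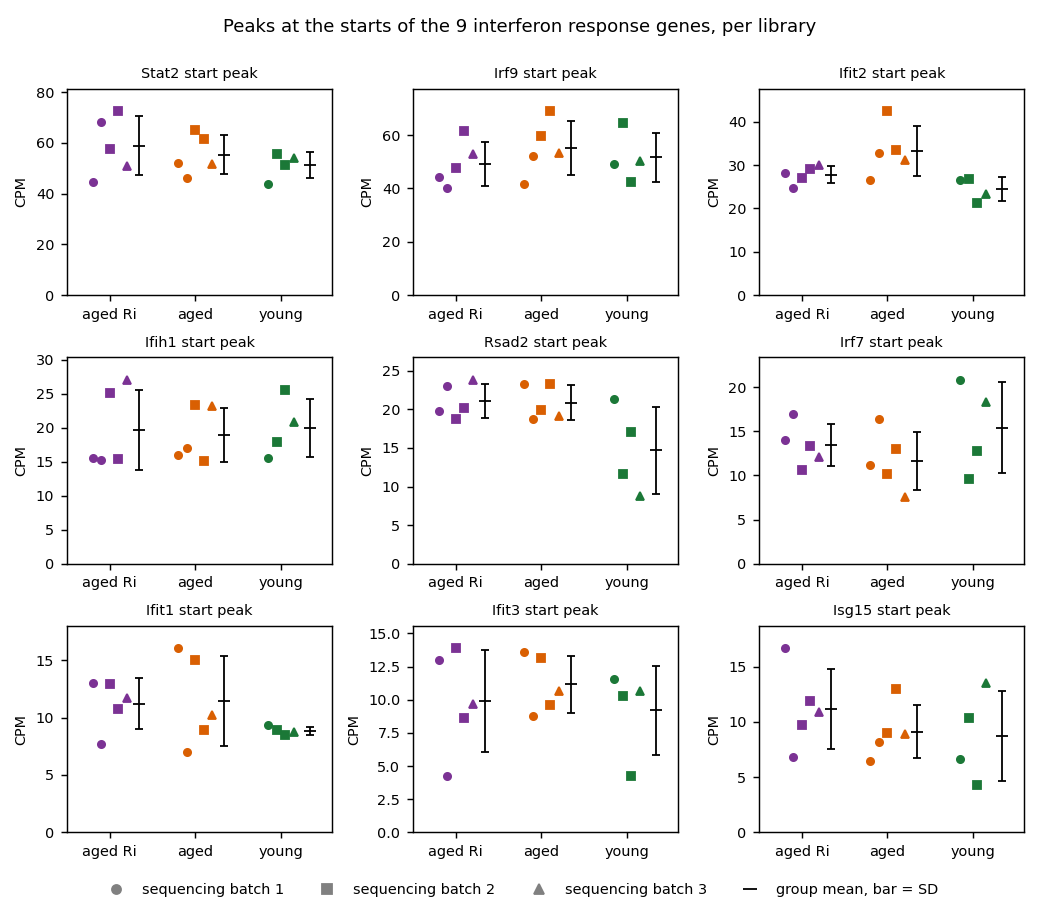
CPM of the start peak of each of the 9 genes (vertical axis) in every library, with aged Ri left, aged in the middle and young right; symbols give the sequencing batch and black bars the group mean ± SD. Groups overlap at every start, and the order of genes runs from Stat2 (mean 55.4 CPM) to Isg15 (9.73 CPM).

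In aged against young cells, the 2 member peaks that changed lay inside Ifih1 and Ifit2, away from the starts, and both were more accessible in aged cells. The Ifih1 peak rose by 2.02 ± 0.38 (log2 fold change ± SE, n = 5 aged and 4 young), or 4.06-fold, and the Ifit2 peak by 1.33 ± 0.29, or 2.51-fold. None of the 9 start peaks passed the test. Thus 2 of 21 peaks were called (edgeR quasi-likelihood test, Benjamini-Hochberg adjusted p under 0.05), both higher, where 5.72% of all 56235 peaks tested were called and 4.45% were called higher. Without adjustment, 4 of the 21 had a p under 0.05, against 22.3% of all peaks in either direction, a share close to that background. All 4 were higher, where 7187 of all 56235 peaks were higher with such a p.

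Ifih1 encodes MDA5, the cytosolic sensor of long double-stranded RNA. Its called peak (chr2:62618825-62619524, 27.1 kb downstream of the start and inside the gene span; exons were not annotated in the table used) had 10.4, 11.7, 12.8, 8.21 and 8.02 CPM in the 5 aged libraries, against 4.00, 2.75, 1.42 and 0.967 CPM in the 4 young libraries. Every aged library lay above every young one. In the aged Ri libraries it had 7.81, 7.66, 10.3, 7.91 and 6.47 CPM, also above every young library. The counts behind these values were small, 12 to 34 in aged libraries and 1 to 9 in young libraries. The adjusted p was 0.00108 by edgeR for aged against young. Aged minus young log2 differences were 1.27, 1.89 and 2.18 in batches 1, 2 and 3, and the call held without each of the 9 libraries in turn (edgeR adjusted p from 0.000964 to 0.00725).

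The other Ifih1 peaks did not pass the adjusted test. Its start peak (chr2:62645825-62646524) had 15.6, 15.3, 25.2, 15.5 and 27.1 CPM in aged Ri, 16.0, 17.0, 23.3, 15.1 and 23.2 CPM in aged, and 15.5, 17.9, 25.6 and 20.8 CPM in young libraries. The 3 groups covered the same range there, and the log2 fold change of aged over young was 0.03 ± 0.24. The peak 6.3 kb downstream of the start (chr2:62639615-62640314) had 9.62, 7.03, 8.27, 6.16 and 4.45 CPM in aged, against 4.89, 4.12, 1.42 and 2.90 CPM in young libraries. Of the aged libraries, 4 of 5 exceeded every young one, and the log2 fold change was 0.89 ± 0.37 (edgeR adjusted p = 0.148). Peaks at 2.7, 15.6 and 60.3 kb had log2 fold changes of 0.76 ± 0.39, 0.57 ± 0.39 and 0.84 ± 0.43, with adjusted p-values of 0.242, 0.400 and 0.239 in the edgeR test. The last of these lay 9308 bp beyond the far end of the gene. All 6 Ifih1 peaks thus had a positive log2 fold change, from 0.03 at the start to 2.02 inside the gene.

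**Figure D2:**
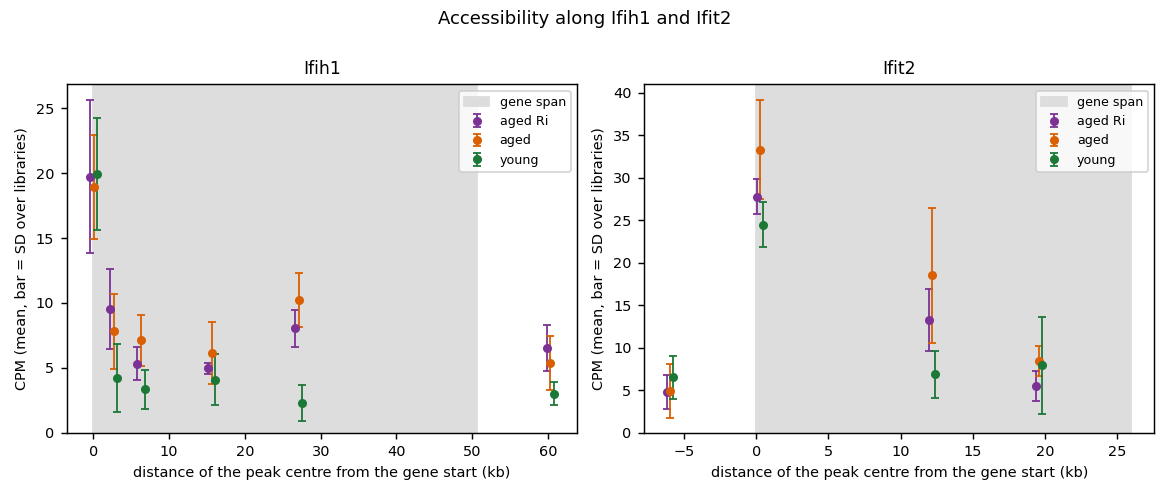
Mean CPM (vertical axis; bars are SD over the 5 aged Ri, 5 aged and 4 young libraries) of each peak of Ifih1 and Ifit2 against the distance of its centre from the gene start in kb; grey marks the gene span, and the groups are offset sideways to keep them apart. At the Ifih1 start the 3 means lie together, and 27.1 kb downstream the aged Ri (8.04 CPM) and aged (10.2 CPM) means lie above the young mean (2.28 CPM).

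The Ifit proteins bind viral RNA ends or block translation initiation. The called Ifit2 peak (chr19:34562356-34563055, inside the span, 12.2 kb downstream of the start) had 22.5, 16.4, 28.9, 17.1 and 7.57 CPM in aged, against 7.55, 10.3, 5.68 and 3.87 CPM in young libraries. Of the aged libraries, 4 of 5 lay above all young ones and aged 5 lay among them. The edgeR adjusted p was 0.00515. Aged minus young log2 differences by batch were 1.24, 1.42 and 0.81, and without each of the 9 libraries in turn the adjusted p by edgeR stayed between 0.00413 and 0.0492. The Ifit2 start peak (chr19:34550432-34551131) had 26.5, 32.8, 42.5, 33.5 and 31.2 CPM in aged, against 26.6, 26.8, 21.3 and 23.2 CPM in young libraries. Here 4 of 5 aged libraries exceeded every young one, but the log2 fold change of 0.44 ± 0.22 had an edgeR adjusted p of 0.223. The Ifit2 peaks 6.0 kb upstream and 19.6 kb downstream had log2 fold changes of -0.46 ± 0.40 and -0.02 ± 0.37.

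The starts of the other antiviral effectors overlapped between aged and young cells. Ifit1 (chr19:34640483-34641182) had 16.0, 7.03, 15.0, 8.90 and 10.2 CPM in aged, against 9.33, 8.93, 8.52 and 8.71 CPM in young libraries. The young libraries lay within 1 CPM of each other, and aged libraries lay on both sides of them (log2 fold change 0.35 ± 0.30). Ifit3 (chr19:34582861-34583560) had 13.6, 8.79, 13.2, 9.58 and 10.7 CPM in aged, against 11.5, 10.3, 4.26 and 10.6 CPM in young libraries, where young 3 stood alone at the low end. Isg15, a ubiquitin-like modifier, had 6.42, 8.20, 9.02, 13.0 and 8.91 CPM in aged, against 6.66, 10.3, 4.26 and 13.5 CPM in young libraries at its start (chr4:156200496-156201195), and its log2 fold change was 0.02 ± 0.33. Rsad2 encodes viperin, which makes a chain-terminating nucleotide. Its start peak (chr12:26456079-26456778) had 23.3, 18.7, 19.9, 23.3 and 19.1 CPM in aged, against 21.3, 11.7, 17.0 and 8.71 CPM in young libraries. Young 1 lay among the aged libraries and the other 3 young ones below them all, with a log2 fold change of 0.51 ± 0.26 and an edgeR adjusted p of 0.237.

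Reads near the Ifit genes carry some doubt. The Ifit1 start peak also lies in the spans of Ifit1bl1 and Ifit1bl2, the Ifit1 far-end peak lies in the span of Ifit1bl1, and Ifit3 has a close copy in Ifit3b. Both Ifit1 peaks thus count in the Ifit1bl1 gene sum as well as in that of Ifit1, and among the pathway peaks too. How reads that map to more than one copy were counted is not given in the sources used here. The Stat2 start peak also lies in the span of Apof, and the Irf9 start peak lies 89 bp from the end of Rnf31.

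The transcription factors showed no called change with age. Stat2 (chr10:128270173-128270872) had 52.1, 46.3, 65.0, 61.6 and 51.7 CPM in aged, against 44.0, 55.7, 51.1 and 54.2 CPM in young libraries, a log2 fold change of 0.13 ± 0.21. Irf9 (chr14:55603763-55604462) had 41.7, 52.1, 59.8, 69.1 and 53.4 CPM in aged, against 49.3, 64.6, 42.6 and 50.3 CPM in young libraries, a log2 fold change of 0.11 ± 0.20. Both pairs of groups overlapped over most of their range. Irf7 was the one gene whose start had a negative log2 fold change, -0.49 ± 0.27 with an edgeR adjusted p of 0.283. Its start peak (chr7:141265909-141266608) had 11.2, 16.4, 10.2, 13.0 and 7.57 CPM in aged, against 20.9, 9.62, 12.8 and 18.4 CPM in young libraries, and the groups overlapped. A second Irf7 peak 1.4 kb downstream had a log2 fold change of -0.09 ± 0.27.

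**Figure D3:**
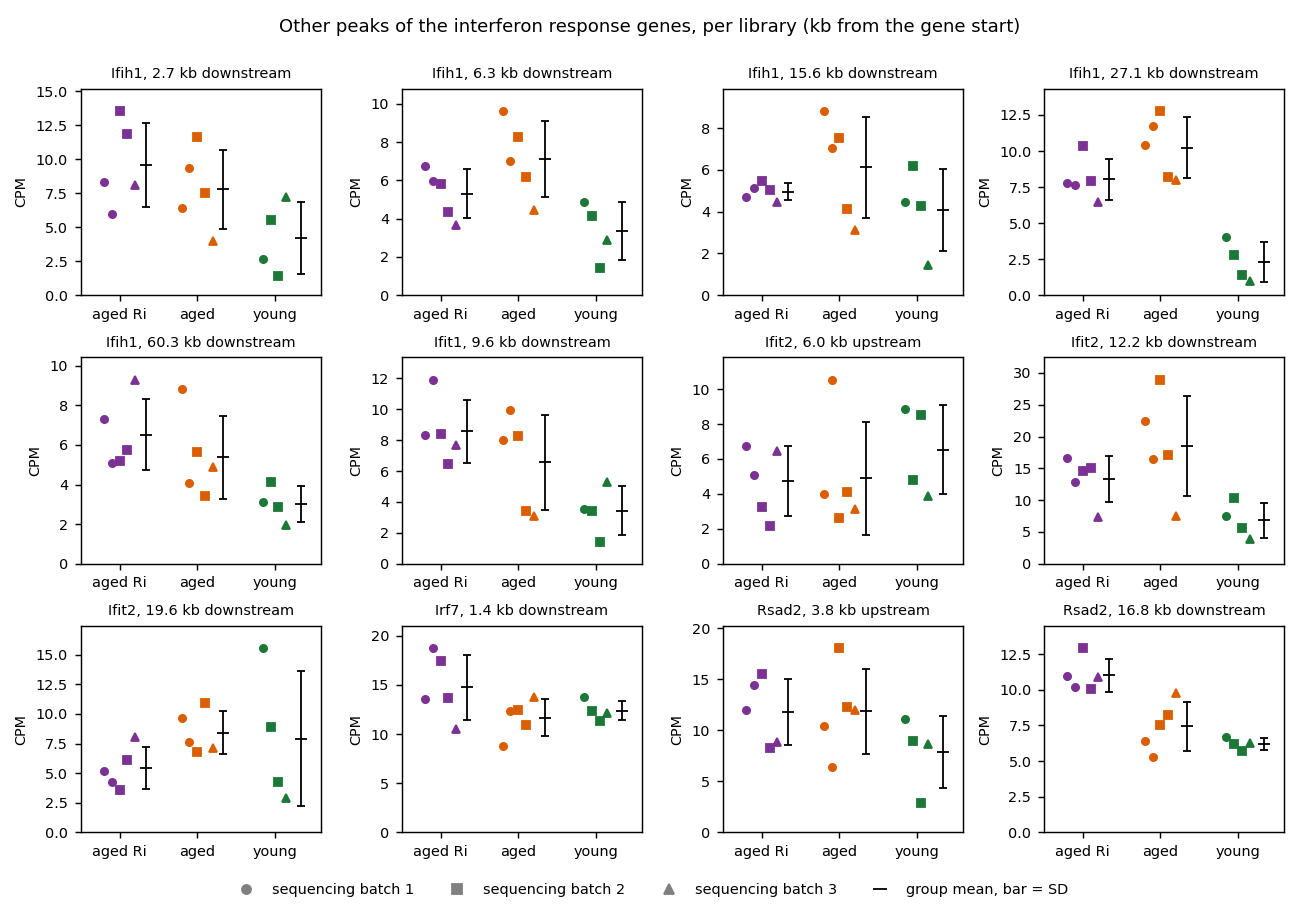
CPM (vertical axis) of the 12 member peaks away from the starts in every library, with aged Ri left, aged in the middle and young right; panel titles give the gene and the distance of the peak centre from the gene start, symbols the sequencing batch and black bars the group mean ± SD. Young libraries lie below all others at the Ifih1 peak 27.1 kb downstream (0.967 to 4.00 CPM), and aged Ri libraries lie above all others at the Rsad2 peak 16.8 kb downstream (10.1 to 12.9 CPM).

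Over all 21 peaks, 17 had a positive log2 fold change of aged over young, and the median was 0.35, where the median of all peaks tested was -0.01. The 9 start peaks had a median of 0.13, against -0.22 for all 13728 gene-end peaks, and the 12 others had 0.65, against 0.09 for all 42507 peaks off gene ends. The 12 others include the Ifit1 far-end peak, which is itself a gene-end peak, so the 2 sets of this last comparison are not defined alike. These are descriptions of a list of chosen genes, and neighbouring peaks of 1 gene are not independent. When the peaks of each protein-coding gene were summed, 2 of the 9 genes were called, both higher, against 5.60% of 16716 gene sums called and 4.79% called higher. The Ifih1 sum had 63.8, 60.9, 69.1, 42.7 and 42.4 CPM in aged, against 32.4, 37.1, 32.5 and 30.8 CPM in young libraries, with no overlap (log2 fold change 0.73 ± 0.18, edgeR adjusted p = 0.0171). The Ifit2 sum had 66.4, 72.9, 80.7, 63.0 and 43.6 CPM in aged, against 54.9, 46.5, 35.0 and 29.6 CPM in young libraries, where aged 5 fell within the young range (0.60 ± 0.17, edgeR adjusted p = 0.0337). The Rsad2 and Ifit1 sums had log2 fold changes of 0.58 ± 0.18 and 0.62 ± 0.26 with adjusted p-values of 0.0577 and 0.150 in the edgeR test. No member gene sum was called without aged 1, aged 2, aged 3, young 1 or young 3, and 1 remained called without aged 4, young 2 or young 4. The Ifit2 sum was called in 1 of the 9 fits that left out a library and the Ifih1 sum in 4. The share of all gene sums called in those fits is not given here.

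The mean level of the 9 gene sums varied with the make-up of the libraries. With the share of counts at gene ends as a further term in the model, no member peak and no member gene sum was called. The Ifih1 peak then had a log2 fold change of 1.89 (edgeR adjusted p = 0.0954) and the Ifit2 peak 1.04 (edgeR adjusted p = 0.350). How many of all peaks and gene sums were called with this term is not given here, so the loss is not read as particular to the members. Across the 14 libraries, with batch means removed, the mean log2 CPM of the 9 gene sums had a Pearson r of -0.91 with that share and of 0.65 with log2 total counts, given as descriptions because the points share their group. The r of other gene sums with that share is not given here, so it is not read as particular to the members. The share differed with age, and its part in these results was not tested beyond that model. Markers of other cells were read from their gene-end peaks. The B cell list, where 2 of 5 genes had such a peak (Cd79a and Cd79b), summed to 22.9 to 45.5 CPM in aged Ri, 28.1 to 50.6 CPM in aged and 47.9 to 89.7 CPM in young libraries. Aged and young libraries overlapped there between 47.9 and 50.6 CPM alone. The plasmacytoid dendritic cell list, with a peak at 2 of 4 genes, summed to 33.6 to 63.4 CPM in aged Ri, 31.5 to 47.9 CPM in aged and 47.7 to 62.2 CPM in young libraries. The part of either list in these results was not tested. The summed levels of the T and NK cell, endothelial and stromal, erythroid and mature myeloid lists overlapped more widely between aged and young libraries. Irf7 followed the mean of the other 8 genes least, with r = 0.04, and Ifit1 most, with r = 0.80. The 5 genes whose sums were most like the member mean over these 14 libraries, of 11697 compared, were Emb (r = 0.97), Ttc8, Plbd1, Tns3 and Sash1 (r = 0.96 each), none of them on the interferon pathway list.

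**Figure D4:**
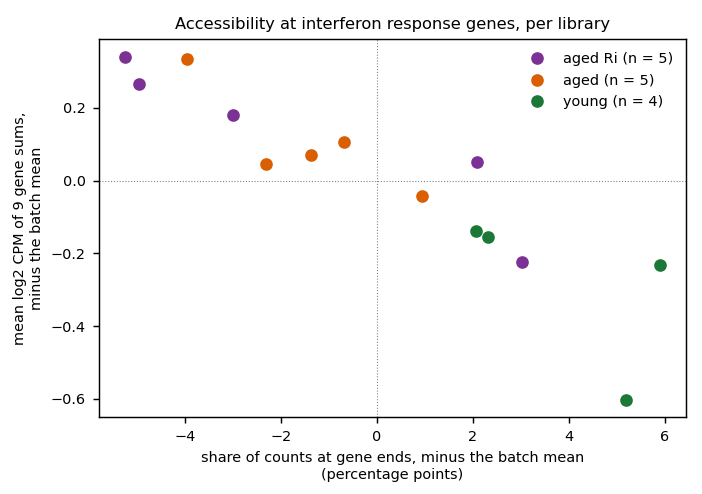
Mean log2 CPM of the 9 gene sums (vertical axis) against the share of counts at gene ends in percentage points (horizontal axis), both minus the mean of the library's sequencing batch; each point is 1 library. All 4 young libraries lie at the lower right, aged Ri 2 lies near them, and r over the 14 points is -0.91.

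Rhosin produced no called change at the member peaks of aged cells. In aged Ri against aged cells, 0 of 21 peaks and 0 of 9 gene sums were called by edgeR, where 0.446% of all peaks and 0.126% of all gene sums were. Without adjustment, 1 of 21 peaks had a p under 0.05, against 10.2% of all peaks, and 1 of 9 gene sums did, against 8.58% of all gene sums. DESeq2 gave an adjusted p for 13 of the 21 peaks and called 0 of these, where it called 0.462% of all peaks. Its unadjusted p was under 0.05 at 0 of the 21, against 7.63% of all peaks. Of the 21 log2 fold changes, 11 were positive and 10 negative, with a median of 0.01 and a range from -0.55 to 0.56.

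Neither of the peaks that were higher in aged than in young cells was called between aged Ri and aged cells. At the Ifih1 peak 27.1 kb downstream, aged Ri libraries averaged 8.04 ± 1.41 CPM and aged libraries 10.2 ± 2.11 CPM (SD, n = 5 each), a log2 fold change of -0.34 ± 0.28 with an edgeR adjusted p of 0.766. At the Ifit2 peak 12.2 kb downstream, aged Ri libraries had 16.7, 12.8, 14.5, 15.1 and 7.28 CPM, against 22.5, 16.4, 28.9, 17.1 and 7.57 CPM in aged libraries. The aged Ri values fell within or just below the aged range, and the log2 fold change was -0.46 ± 0.24 (edgeR adjusted p = 0.532). The Ifit2 peak 19.6 kb downstream (chr19:34569779-34570478) had 5.21, 4.26, 3.55, 6.11 and 8.09 CPM in aged Ri, against 9.62, 7.62, 6.77, 10.9 and 7.12 CPM in aged libraries (-0.55 ± 0.35, edgeR adjusted p = 0.647). The Ifit2 gene sum was 67.2, 44.0, 49.4, 48.0 and 49.3 CPM in aged Ri, against 66.4, 72.9, 80.7, 63.0 and 43.6 CPM in aged libraries. Its log2 fold change of -0.32 ± 0.15 had an edgeR adjusted p of 0.551.

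The one member peak with an unadjusted p under 0.05 in this comparison was the Rsad2 peak 16.8 kb downstream of the start (chr12:26439336-26440035), which lies 2708 bp beyond the far end of the gene. It had 10.9, 10.2, 12.9, 10.1 and 10.9 CPM in aged Ri, against 6.42, 5.27, 7.52, 8.21 and 9.80 CPM in aged and 6.66, 6.19, 5.68 and 6.29 CPM in young libraries. All 5 aged Ri libraries lay above every library of the other groups, the sole member peak where aged Ri and aged did not overlap. Such a separation was thus seen at 1 of 21 member peaks, against 1.56% of all peaks. The log2 fold change of aged Ri over aged was 0.56 ± 0.26 (edgeR adjusted p = 0.462), and the difference within batches was 0.76, 0.48 and 0.14. Rsad2 had 19.8, 23.0, 18.7, 20.1 and 23.9 CPM at its start in aged Ri libraries, inside and around the aged range, with a log2 fold change of 0.02 ± 0.22.

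At the other starts, aged Ri and aged libraries overlapped. Stat2 had 44.8, 68.1, 57.8, 72.6 and 50.9 CPM in aged Ri libraries, a log2 fold change of 0.08 ± 0.19 over aged, and Irf9 had 44.3, 40.0, 47.8, 61.5 and 53.0 CPM, a log2 fold change of -0.16 ± 0.19. Irf7 had 14.1, 17.0, 10.7, 13.3 and 12.1 CPM (0.21 ± 0.25), and Ifit2 28.1, 24.7, 27.1, 29.1 and 29.9 CPM (-0.26 ± 0.19). The 5 aged Ri values of Ifit2 lay close together and below 4 of the 5 aged libraries. Ifit1 had 13.0, 7.66, 12.9, 10.8 and 11.7 CPM (-0.01 ± 0.27), Ifit3 13.0, 4.26, 13.9, 8.63 and 9.70 CPM (-0.13 ± 0.28), and Isg15 16.7, 6.81, 9.68, 11.9 and 10.9 CPM (0.32 ± 0.29). A log2 fold change of 0 lay within 2 SE of each of these values, and so did small changes, so weak effects of Rhosin could not be told from none at this depth. The adjusted test also missed most 2-fold changes at peaks in simulated data. There, for aged against young, it called 26% of 2-fold rises and 14.6% of 2-fold falls among changed peaks that passed the filter on low counts. Counting also the falls lost to that filter, it called 6 of 50.

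The aged Ri and aged libraries with the same replicate number shared a sequencing batch, and their deviations from the group means correlated positively in each of the 5 pairs. With batch means removed, 2 of the 5 correlations were negative. Removing batch means by itself lowers such correlations, most so in batch 3, where each group had a single library. These values therefore cannot decide on pairing. The labels say that Rhosin was added to 1 of the aged cell samples. They do not say whether same-numbered libraries came from the same mouse or pool. The aged Ri against aged comparison was therefore also fitted with the replicate number as a block. Under this replicate block, 0 of the 20 member peaks tested and 0 of 9 gene sums were called. Of the 51901 peaks tested with the block, 4.42% were called, against 0.446% of all peaks in the main model. The share of all gene sums called with the block is not given here. The Rsad2 peak 16.8 kb downstream then had an adjusted p of 0.241 by edgeR and a log2 fold change of 0.56.

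**Figure D5:**
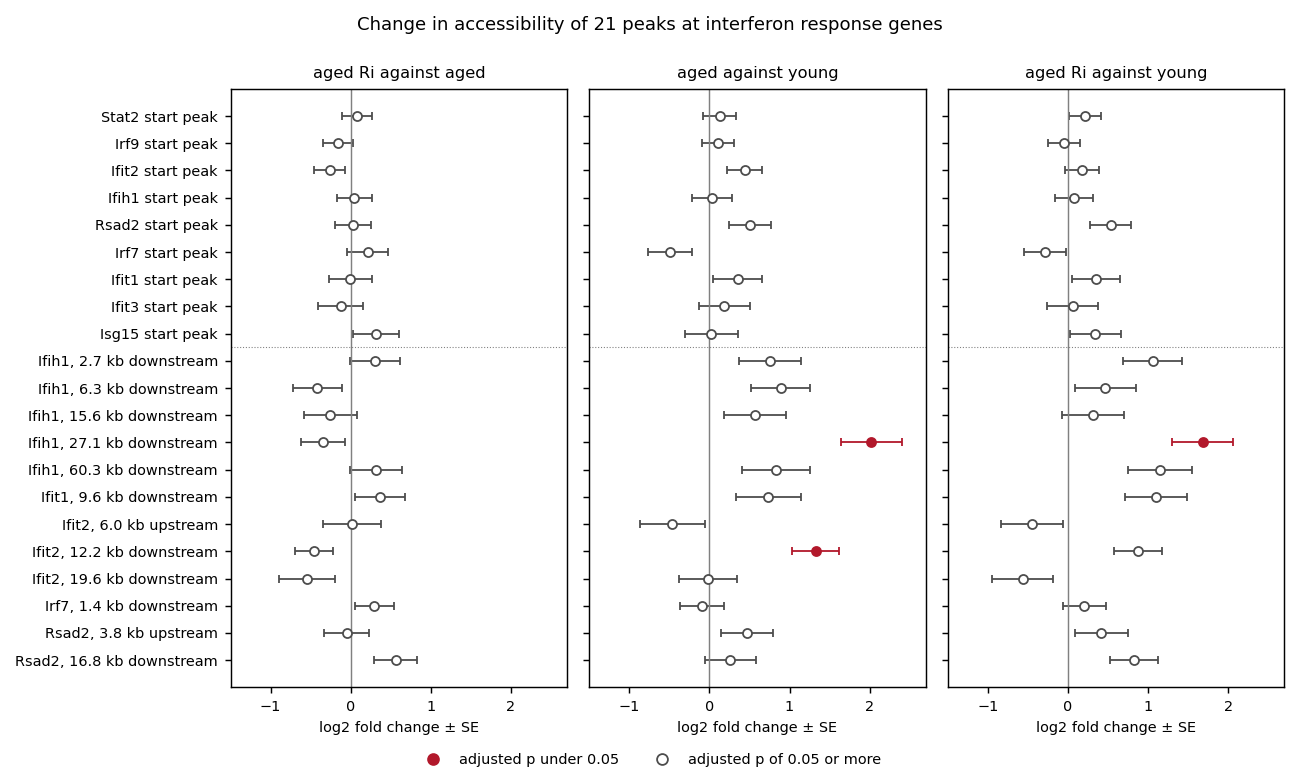
Log2 fold change ± SE (horizontal axes) of the 21 member peaks in 3 comparisons; filled red points have an adjusted p under 0.05 by edgeR, the dotted line parts the 9 start peaks (above) from the 12 others (below). The red points are the Ifih1 peak 27.1 kb downstream in both comparisons with young cells (2.02 and 1.68) and the Ifit2 peak 12.2 kb downstream in aged against young cells (1.33).

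Aged Ri cells set against young cells again showed the Ifih1 peak. The 3 comparisons share libraries pairwise (the young ones, the aged ones or the aged Ri ones), so their values are given side by side and are not independent. The Ifih1 peak 27.1 kb downstream was higher in aged Ri than in young cells by 1.68 ± 0.39 (log2), or 3.20-fold, with an edgeR adjusted p of 0.00401, and no aged Ri library overlapped a young one. The Ifit2 peak 12.2 kb downstream had a log2 fold change of 0.87 ± 0.30 and an adjusted p of 0.0508 by edgeR. In all, 1 of 21 member peaks was called, higher, where 11.5% of all peaks were called and 7.90% were called higher. Without adjustment 7 of 21 had a p under 0.05, against 27.7% of all peaks in either direction. All 7 were higher, where 8523 of all 56235 peaks were higher with such a p.

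At 4 of the 21 peaks the aged Ri and young libraries did not overlap, against 8.85% of all peaks, and 3 of these missed the adjusted test. The Ifit1 far-end peak (chr19:34650186-34650885) had 8.33, 11.9, 8.39, 6.47 and 7.68 CPM in aged Ri, against 3.55, 3.44, 1.42 and 5.32 CPM in young libraries (log2 fold change 1.10 ± 0.38, edgeR adjusted p = 0.0564). The Ifih1 peak 60.3 kb downstream (chr2:62585611-62586310) had 7.29, 5.11, 5.16, 5.75 and 9.30 CPM in aged Ri, against 3.11, 4.12, 2.84 and 1.93 CPM in young libraries (1.15 ± 0.40, edgeR adjusted p = 0.058). The Rsad2 peak 16.8 kb downstream, whose values are given above, had a log2 fold change of 0.82 ± 0.30 and an edgeR adjusted p of 0.0682. At the Ifih1 peak 2.7 kb downstream (chr2:62643229-62643928) the log2 fold change was 1.06 ± 0.37, and 4 of 5 aged Ri libraries lay above every young one (edgeR adjusted p = 0.058). Without young 4 or without aged Ri 4, 3 of the 21 peaks were called, and without aged Ri 2, 2 were. The shares of all peaks called in those fits are not given here.

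Among gene sums, 3 of 9 were called in aged Ri against young cells, all higher, where 11.8% of all gene sums were called and 8.94% were called higher. Ifih1 had 59.8, 42.4, 66.9, 46.0 and 56.2 CPM in aged Ri libraries, all above the young libraries (log2 fold change 0.71 ± 0.18, edgeR adjusted p = 0.011). Rsad2 had 50.6, 44.8, 48.1, 35.2 and 41.6 CPM in aged Ri, against 36.6, 24.5, 22.5 and 20.7 CPM in young libraries, with aged Ri 4 below young 1 (0.71 ± 0.18, edgeR adjusted p = 0.0112). Ifit1 had 25.3, 18.4, 21.7, 15.8 and 18.5 CPM in aged Ri, against 12.1, 11.3, 8.75 and 12.2 CPM in young libraries, with no overlap (0.76 ± 0.25, edgeR adjusted p = 0.0463). The Ifit1 call was lost under each of the 6 other settings tried on these libraries, with adjusted p-values from 0.0511 to 0.750 in edgeR and DESeq2. Without aged Ri 3 no member gene sum was called, and without young 1 only that of Rsad2 was. The shares of all gene sums called in those fits are not given here. With the share of counts at gene ends as a further term, no member peak or member gene sum was called. The share of all peaks called with that term is not given here. The Ifih1 peak 27.1 kb downstream then had a log2 fold change of 1.54 (edgeR adjusted p = 0.139).

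The wider interferon pathway list, 58 genes of which 55 had at least 1 peak, changed in few peaks and in both directions. In aged against young cells, 13 of 214 peaks were called, 10 higher and 3 lower, close to the 5.72% of all peaks. By role, calls fell on 4 of 60 peaks of antiviral effectors, 4 of 52 of transcription factors, 3 of 30 of nucleic acid sensing, 2 of 49 of receptors and kinases, and 0 of 23 of genes that brake the response. The smallest p-value was at a peak 3383 bp from Tyk2, which encodes a kinase of the interferon receptor. It had a lowest, median and highest level of 12.3, 14.2 and 29.3 CPM in aged, against 2.90, 5.51 and 8.52 CPM in young libraries (log2 fold change 1.71 ± 0.34, edgeR adjusted p = 0.0019). Next came a peak at an end of Ifit1bl1, a relative of Ifit1, with 1.19 ± 0.27, a peak inside Cmpk2, the neighbour of Rsad2, with 1.44 ± 0.34, and a peak 25016 bp from Tbk1, a kinase downstream of nucleic acid sensors, with 1.20 ± 0.31 (edgeR adjusted p of 0.00622, 0.00861 and 0.0153). The count of 13 calls became 1 without young 1, 33 without young 4, 4 without aged 3, 5 without young 2, young 3 or aged 1, and 8 without aged 2. The share of all peaks called in those fits is not given here, so these swings are not read as particular to the list.

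In aged Ri against aged cells, 0 of the 214 pathway peaks were called by edgeR, against 0.446% of all peaks, and DESeq2 called 1. Of the 214, 23 had an unadjusted p under 0.05, against 10.2% of all peaks. Under the replicate block, 8 of those tested were called, of 2292 called among all peaks, 4.42% in all. Higher in aged Ri were peaks at Trim25 (1.01 ± 0.20), a ubiquitin ligase of the RIG-I pathway, Ikbke, a relative of Tbk1 (1.29 ± 0.26), Tyk2 (0.87 ± 0.19) and Ifi204, an interferon-induced DNA-binding protein (0.88 ± 0.21). Lower were peaks at Ifnar2, a chain of the interferon receptor (-1.14 ± 0.30), Jak1, its kinase (2.00-fold lower), Ifngr1, a chain of the interferon gamma receptor (-0.93 ± 0.27), and Irf2 (-0.59 ± 0.18).

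In aged Ri against young cells, 27 of 214 pathway peaks were called, 18 higher and 9 lower, beside 11.5% of all peaks. The smallest p-values were at the same Tyk2 peak (2.54 ± 0.33, edgeR adjusted p = 5.46e-06), the Tbk1 peak (1.75 ± 0.30), a peak 21903 bp from Irf2, a repressor of interferon targets (1.26 ± 0.26), and a peak 24153 bp from Socs3, an inhibitor of JAK signalling (1.44 ± 0.30). At the Tyk2 peak, aged Ri libraries had a lowest, median and highest level of 17.0, 26.0 and 62.3 CPM, above every young library. The count fell to 10 without young 1, to 15 without young 2 and to 9 without aged Ri 3, and the share of all peaks in those fits is not given here. Gene sums of 8 of the 55 pathway genes were called, against 11.8% of all gene sums, higher for Ddx58, Dtx3l, Ifit1bl1, Ifitm3, Irf2 and Trim25 and lower for Ifngr2 and Irf8, and in aged against young cells 3 were called, against 5.60% of all gene sums, all higher: Dtx3l, Ifit1bl1 and Ifitm3. Each of these calls was lost without at least 1 library. The Ifit1bl1 sum includes the counts of both Ifit1 peaks, so it is not separate from the Ifit1 sum.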

How the data were processed

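Bulk ATAC-seq of 14 libraries was deposited by the authors as raw counts per consensus peak and library, whole numbers in 57289 peaks of 700 bp on mm10. The submitters' processing notes name SAMtools 1.14, R 4.2.0 and featureCounts. How reads were aligned, peaks called, duplicates or multi-mapped reads treated and Tn5 cuts shifted is not given in the sources used here. Libraries were grouped by the labels.

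The counts of all 14 libraries entered 1 edgeR 4.0.16 model in R 4.3.3, with terms for group and sequencing batch. It used filterByExpr with groups, TMM scaling and a robust quasi-likelihood F test, with Benjamini-Hochberg adjustment over all 56235 peaks kept, or over 16716 gene sums, and a threshold of 0.05. The standard error is the log2 fold change divided by the root of F. CPM used TMM scaling and log2 values a prior count of 2. Low counts per peak and the spread between libraries limit the precision. The fit was tested on simulated data of aged against young. At peaks it called 26% of 2-fold and 98% of 4-fold rises, and 14.6% of 2-fold and 87.5% of 4-fold falls. For gene sums it called 78% of 2-fold rises and 75.5% of 2-fold falls. These shares are of the changed peaks or gene sums that passed the filter on low counts. CPM means carry no batch adjustment, unlike the folds of the model. Gene spans, start sites and promoters came from RefSeq tables of GRCm38.p6; 9 of 9 genes matched by symbol, and 56 of 58 pathway genes. Distances of peaks count from the start of the gene span, and positions of response element cores from the annotated start of their window.

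The 9 genes, the pathway list and the marker lists were chosen with earlier results of these data known. Named in the text were all 9 genes, per gene the peak with the most counts, peaks at gene ends, called peaks and the 3 smallest p-values of each comparison, and for the pathway at most 4 peaks per comparison. P-values measure the spread between these libraries. Same-numbered aged Ri and aged libraries shared a sequencing batch, and their deviations from the group means correlated by 0.143 to 0.645 over 25903 peaks. Their numbers paired them in the alternative fit with the replicate block alone, and the main model held no pairing. If same-numbered libraries came from a split sample, the main model leaves that pairing out, and the labels do not settle this. With batch means removed, the correlations of replicates 1 to 5 were 0.084, -0.049, 0.472, 0.217 and -0.225. The removal itself lowers these values, most so in batch 3, so they cannot decide on pairing. For the young group the correlations ran from -0.280 to 0.065 and the numbers were not taken to pair libraries. No library pair within a group agreed within counting noise (chi-square per peak from 1.58 to 8.71). Alternatives were RLE scaling, loess offsets, DESeq2 1.42.0, no filter, the gene-end share as covariate, the replicate block, peaks within 10 kb, and leaving out each library.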

Additional observations from a re-analysis of the deposited data

Results flagged for a closer look

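Of 90 sets of values tested, each of 1 group at 1 member peak or gene sum, 3 held a library far from the others; by chance about 1 in 20 would. The Ifit2 peak 6.0 kb upstream had 10.5 CPM in aged 2, against 2.63 to 4.11 CPM in the other aged libraries. The Ifit3 start peak had 4.26 CPM in young 3, the library with the fewest counts, against 10.3 to 11.5 CPM in the other young libraries. The Ifit2 gene sum was 67.2 CPM in aged Ri 1, against 44.0 to 49.4 CPM in the other aged Ri libraries.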

How the results depend on the processing

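Of 311 alternative values of 21 named results, 269 kept their direction and their side of the threshold, 35 kept the direction and lost the call, 7 kept it and gained the call, and none reversed. Of 1037 values not past an unadjusted p of 0.05 in the reported setting, 75 changed sign. With the gene-end share as covariate, 0 member peaks and 0 member gene sums were called in each comparison. Pathway peaks called numbered 0 in aged against young, 1 in aged Ri against aged and 1 in aged Ri against young. The share of all peaks called in that model is not given here, and the cause was not tested. With that covariate, the log2 fold change of the Ifih1 peak was 1.89, against 2.02 as reported, in aged over young and 1.54, against 1.68, in aged Ri over young. The pathway peaks called in aged against young all kept their direction with smaller folds. Log2 fold changes went from 1.15 to 1.10 at an Irf2 peak, from 1.71 to 1.38 at Tyk2 and from -1.44 to -0.57 at Cgas. Loess offsets gave 2 member peaks in aged Ri against young. DESeq2 gave 1 pathway peak in aged Ri against aged. Counting only peaks within 10 kb left 16 pathway peaks in aged Ri against young, since fewer peaks were counted from the same fit. The replicate block gave 8 pathway peaks in aged Ri against aged and 16 in aged Ri against young, where the numbers do not pair the libraries; taking aged over young, then aged Ri over aged, then aged Ri over young, it gave 2 of 16, 0 of 20 and 1 of 17 member peaks tested, the counts reported, and 3, 0 and 2 member gene sums. In that order, leaving out 1 library at a time gave 2 to 3, 0 to 0 and 1 to 3 member peaks, 1 to 33, 0 to 2 and 9 to 36 pathway peaks, and 0 to 2, 0 to 0 and 0 to 3 member gene sums. The shares of all peaks and gene sums called in the fits that left out a library are not given here. The depth, with 765533 to 3176246 counts in a library, limits what single peaks can show.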
